A study of Mus musculus with 9 samples.

Results

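Complement is a cascade of blood and tissue proteins that tags cells and microbes for clearance, and 9 of its genes were followed here in mesenchymal stromal cells of mouse bone marrow. They were taken by gene symbol from the 30579 genes of the deposited expression table: C1ra and C1s1, the proteases of the C1 complex; C2, C4b, C3 and Cfb, which build the convertases; and Serping1, Cd55 and Cd59a, which restrain the cascade. All 9 were present. RNA came from stromal cells that were sorted out of long-bone marrow of 18-month-old mice labelled aged Thbs1 knockout, of 18-month-old aged controls and of 3-month-old young controls, 3 libraries each. All mice, controls included, had received an antibody to VE-cadherin, an endothelial surface protein, into the retro-orbital sinus shortly before death. The strain, the knockout allele and the gates of the sort were not given in the sources used here. No label says that each library is a different mouse, and p-values therefore reflect only how these libraries spread, which may be technical.

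The cascade can start in several ways. In the classical route C1q binds antibody or a surface and activates C1r and C1s, which cut C4 and C2. The lectin route starts from mannose-binding lectins and also leads to the cutting of C4 and C2. The alternative route runs on C3, factor B and factor D. All of them meet at C3, whose large fragment attaches to surfaces, and end in a pore of late components. Stromal cells and fibroblasts are a known source of several of these proteins outside the liver, where most of the plasma supply is made.

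The targeted gene did not separate the aged groups. Thbs1, thrombospondin-1, was at 24.28, 44.55 and 37.05 FPKM in the libraries labelled aged Thbs1 knockout and at 35.56, 41.89 and 36.85 FPKM in aged controls (limma adjusted p = 0.801), and at 74.98, 73.11 and 58.03 FPKM in young controls. FPKM is fragments per kilobase of transcript, scaled to the mapped fragments of the library, so levels can be compared between genes. The first group is therefore called the libraries labelled knockout, and directions drawn from it rest on that label. The steps between low FPKM values corresponded to 17.76 to 27.6 M reads per library. Replicate 2 of the libraries labelled knockout stood apart from its group: over the tested genes it correlated with the other libraries at 0.738 to 0.811. Labelled replicates 1 and 3 correlated at 0.948 and pairs within a control group at 0.907 to 0.987, while all pairs without replicate 2 ran from 0.773. Replicate 2 had 13503 genes above 0 against 16557 to 18382 elsewhere. Defining stromal markers were high in all 9 libraries (Cxcl12 at 2873.19 to 6044.06 and Lepr at 233.23 to 672.93 FPKM). Immunoglobulin genes took 0.162%, 19.2% and 2.36% of the non-mitochondrial reads, estimated as FPKM times length, in the libraries labelled knockout, 21.6%, 4.27% and 31.9% in aged controls and 0.00383%, 0.0103% and 0.17% in young controls, and such a share lowers the FPKM of every other gene. In sorted populations analysed in bulk, fewer cells of a type and less RNA per cell cannot be told apart.

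The genes lie in a few places of the mouse genome (GRCm38, GENCODE M21 positions). C4b (ENSMUSG00000073418.4, chromosome 17, 34728380 to 34743882, minus strand), Cfb (ENSMUSG00000090231.10, 34856374 to 34862518) and C2 (ENSMUSG00000024371.14, 34862604 to 34898265) stand within 169.9 kb of the major histocompatibility region. A gap of 85 bases separates Cfb from C2, both on the minus strand. C3 (ENSMUSG00000024164.15, 57203970 to 57228136) is elsewhere on chromosome 17. C1ra (ENSMUSG00000055172.10, chromosome 6, 124512405 to 124523443, plus strand) and C1s1 (ENSMUSG00000038521.17, 124530345 to 124542359, minus strand) face each other across 6901 bases. Serping1 (ENSMUSG00000023224.12, 84765387 to 84775444) and Cd59a (ENSMUSG00000032679.12, 104095801 to 104115354) are on chromosome 2, as is Thbs1, which starts 14.0 Mb (Mb, megabases) beyond Cd59a and 33.3 Mb beyond Serping1. Cd55 (ENSMUSG00000026399.12, 130439027 to 130462744) is on chromosome 1. Exons of C2 and Cfb overlap the annotated gene Gm20547 on the same strand, so strand would not separate reads there. On the opposite strand, exons of C2 overlap Zbtb12, those of C1s1 the antisense gene Gm16567 and those of Cd55 the antisense gene Gm16083. Whether counting used strand is not given in the sources used here, so reads in all these places are uncertain.

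Promoter sequences of 5 of the 9 members were in the RefSeq table used (GRCm38.p6, 250 bases before to 50 after each start). C2, C4b, Cfb and Serping1 had no entry. Of their 6 windows, 4 held at least 1 of 4 motifs searched on both strands, and those 4 are printed because they include the neighbouring C1 protease genes, the central component C3 and Cd59a, the member with the largest fold change against both control groups. Capitals mark the motif letters, and the motifs did not overlap.
C1ra, chr6:124512371-124512670, plus strand: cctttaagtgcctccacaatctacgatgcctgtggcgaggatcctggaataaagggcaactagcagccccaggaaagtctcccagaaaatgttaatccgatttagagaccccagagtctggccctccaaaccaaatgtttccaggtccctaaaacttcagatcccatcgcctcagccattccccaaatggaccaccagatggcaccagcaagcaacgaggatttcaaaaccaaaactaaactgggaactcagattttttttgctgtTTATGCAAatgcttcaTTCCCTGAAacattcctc
C1s1, chr6:124542310-124542609, minus strand: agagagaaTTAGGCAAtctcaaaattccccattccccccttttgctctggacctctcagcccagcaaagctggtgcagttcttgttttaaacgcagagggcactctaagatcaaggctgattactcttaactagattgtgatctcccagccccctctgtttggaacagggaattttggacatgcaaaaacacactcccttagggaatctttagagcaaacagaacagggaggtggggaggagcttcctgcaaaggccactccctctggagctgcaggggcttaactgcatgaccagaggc
C3, chr17:57228087-57228386, minus strand: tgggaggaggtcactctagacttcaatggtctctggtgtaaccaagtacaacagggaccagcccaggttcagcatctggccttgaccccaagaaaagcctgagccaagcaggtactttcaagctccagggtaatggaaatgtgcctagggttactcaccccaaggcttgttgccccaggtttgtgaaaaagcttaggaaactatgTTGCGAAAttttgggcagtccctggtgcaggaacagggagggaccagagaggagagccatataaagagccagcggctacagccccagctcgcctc
Cd59a, chr2:104095551-104095850, plus strand: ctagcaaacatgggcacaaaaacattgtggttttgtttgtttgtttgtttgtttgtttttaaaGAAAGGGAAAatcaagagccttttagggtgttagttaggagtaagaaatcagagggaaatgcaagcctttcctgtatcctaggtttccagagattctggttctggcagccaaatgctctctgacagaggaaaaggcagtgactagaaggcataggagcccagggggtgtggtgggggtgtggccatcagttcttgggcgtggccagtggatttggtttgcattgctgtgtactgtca
The C1ra window, whose RefSeq start lies inside the first exon of the GENCODE model, held TTGCNNAA (C/EBP type) on the minus strand from 16 to 23, counted from the start as 0, and TTCNNNGAA (the gamma-activated site type) from 32 to 40. The C1s1 window held the C/EBP type from −242 to −235 on the minus strand and that of C3 from −45 to −38 on the plus strand. The Cd59a window held GAAA repeated after any 2 bases (interferon regulatory factor type) from −187 to −178 on the plus strand. None held GGG, any 2 bases and TTTCC (kappaB type). Over the 32851 windows of the table, these letters occurred in 10.8%, 8.3%, 3.44% and 1.63% for the C/EBP, gamma-activated, interferon regulatory factor and kappaB types. A match describes letters only, and no binding was measured.

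The 9 members spanned a wide range of levels. Serping1, which encodes the C1 inhibitor, was the highest member in every library and stood at rank 8 to 42 among all genes, ranked by FPKM. It made up 60.7% to 82.3% of the summed FPKM of the 9 members. A second tier of C4b, C1s1, C1ra and C3 lay between 81.94 and 388.44 FPKM in every library. The order within that tier changed from library to library: C4b led it in 7 of 9 libraries, C1ra in replicate 2 of the libraries labelled knockout and in young control replicate 3. Cd59a, C2, Cd55 and Cfb formed the low tier, at 0.69 to 18.23 FPKM. From the depth estimate, the lowest value, Cfb in young control replicate 3, rested on about 38 reads, and the Serping1 values on about 61497 to 173452 reads.

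**Figure D1:**
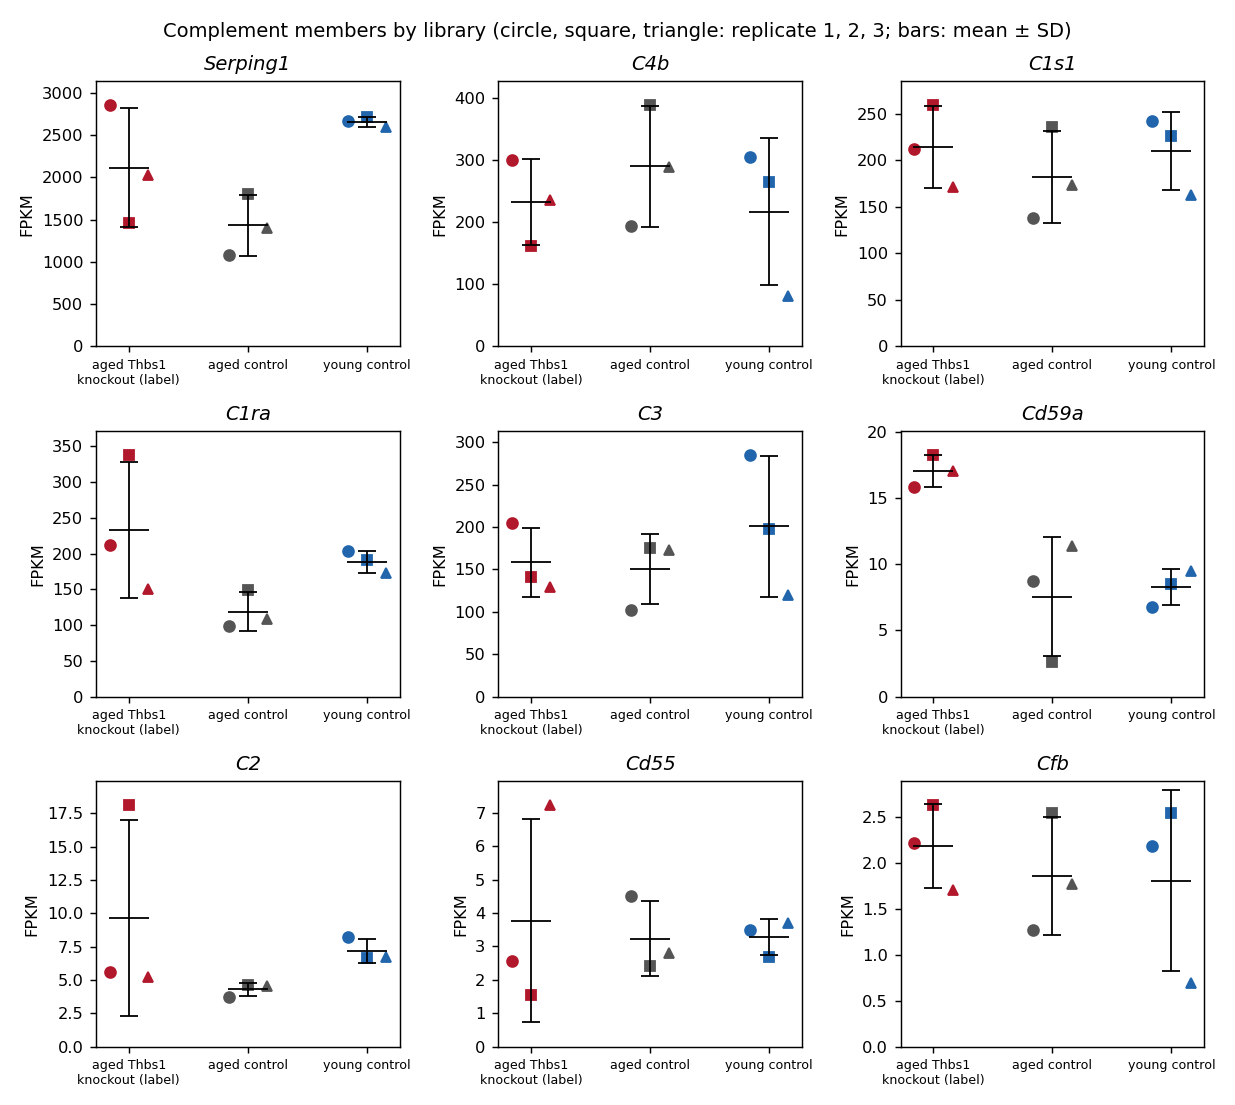
FPKM of the 9 members (each panel from 0, linear axis) in the libraries labelled aged Thbs1 knockout, aged controls and young controls; circles, squares and triangles are replicates 1, 2 and 3, and bars are the mean ± SD of 3 libraries. The 3 Cd59a values of the labelled libraries, 15.82 to 18.23, sit above all control values, while C3, C4b, C1s1, Cd55 and Cfb overlap in every pair of groups.

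The libraries labelled knockout and the aged controls were of equal age and differed by the genotype on the label. They differed in marker levels as well. The pan-leukocyte markers summed to 98.5 to 284.7 FPKM in the libraries labelled knockout and 291.4 to 2500.4 FPKM in aged controls. The cartilage markers summed to 136.2 to 3245.5 and 41.6 to 63.3 FPKM. The label cannot be told apart from such differences here, and their part in the member values was not tested. Of the 9 members none passed limma's test on log2(FPKM + 1) at a Benjamini-Hochberg adjusted p of 0.05, where 3.48% of the 11988 tested genes did. At an unadjusted p under 0.05 there were 2 members, C1ra and Cd59a, against 19.8% of all tested genes. With library weights estimated from the data, a fit that did not converge and weighted the libraries from 0.0543 to 7.36, 4 members passed; the other alternatives called none. For 3 members there was no overlap between the groups, all higher in the libraries labelled knockout, where 16.6% of all genes lay higher without overlap. The median log2 fold change of the members was 0.25, beside 0.07 for all tested genes. All 9 members were at or above 1 FPKM in at least 3 libraries and so were tested.

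Cd59a encodes a membrane anchored protein that stops the terminal pore from forming. It was at 15.82, 18.23 and 17.08 FPKM in the libraries labelled knockout and at 8.7, 2.6 and 11.37 FPKM in aged controls. Every labelled library lay above every aged control, and aged control replicate 2 was the lowest of all 9 libraries. It averaged 17.0 ± 1.21 FPKM in the libraries labelled knockout and 7.56 ± 4.5 FPKM in aged controls (SD, n = 3 each), a log2 fold change of 1.25 (SE 0.41, 95% interval 0.33 to 2.17) that did not pass adjustment in limma (adjusted p = 0.136). The value rested in part on that aged control: it was 0.72 without it, 1.61 without aged control replicate 3 and 1.21 without replicate 2 of the libraries labelled knockout.

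C1ra, the mouse C1r protease, was at 211.59, 337.49 and 149.83 FPKM in the libraries labelled knockout, against 98.06, 149.39 and 108.63 FPKM in aged controls. The groups did not overlap, by a margin of less than 1 FPKM between labelled replicate 3 and aged control replicate 2. The log2 fold change was 0.91 (SE 0.32, 95% interval 0.20 to 1.62) and did not pass (limma adjusted p = 0.156). Without labelled replicate 2, which had the highest C1ra value of all libraries, it was 0.61.

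C2, the serine protease that forms the classical convertase with C4, was at 5.61, 18.09 and 5.22 FPKM in the libraries labelled knockout and at 3.75, 4.6 and 4.54 FPKM in aged controls. The groups did not overlap, and labelled replicate 2 stood more than 9 FPKM above every other library. The log2 fold change of 0.80 (SE 0.39, 95% interval −0.09 to 1.69, limma adjusted p = 0.296) was 0.28 without that library.

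Serping1 was at 2851.8, 1453.31 and 2025.03 FPKM in the libraries labelled knockout and at 1081.07, 1807.38 and 1404.68 FPKM in aged controls. Here labelled replicate 2 was the lowest of its group and lay inside the aged control range. The log2 fold change was 0.54 (SE 0.33, 95% interval −0.20 to 1.28, limma adjusted p = 0.401). Leaving out single libraries moved it between 0.29, without labelled replicate 1, and 0.78, without labelled replicate 2, and it was 0.35 without aged control replicate 1.

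The other 5 members overlapped between these groups and had small fold changes with wide intervals. C1s1, the C1s protease, averaged 214.3 ± 44.2 against 182.2 ± 49.7 FPKM in aged controls (log2 fold change 0.25, 95% interval −0.40 to 0.90). C3 averaged 158.3 ± 40.3 against 150.2 ± 41.4 FPKM (0.09, −0.74 to 0.92). C4b, the mouse C4 that the classical and lectin routes cut, averaged 232.3 ± 69.6 against 290.3 ± 97.2 FPKM and was the only member with a negative log2 fold change (−0.31, −1.45 to 0.83), where 44.3% of all tested genes had one. Cfb, factor B, averaged 2.19 ± 0.461 against 1.86 ± 0.645 FPKM (0.17, −0.55 to 0.89). Cd55, decay-accelerating factor, averaged 3.78 ± 3.02 against 3.24 ± 1.11 FPKM (0.02, −0.89 to 0.94), with 7.22 FPKM in labelled replicate 3 and 1.55 FPKM in labelled replicate 2. For these 5 genes the intervals reached no higher than a log2 value of 0.94, and that of C4b alone went below −1.

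A common factor per library moves all genes alike, and the values above hold relative to the deposited scaling. Each library was also rescaled to the mean log2(FPKM + 1) of its 12 stromal markers, a setting chosen after seeing the data. The median of all tested genes then moved to −0.42 in the libraries labelled knockout against aged controls. The members' log2 fold changes were then −0.059 for Serping1, −0.35 for C1s1, −0.51 for C3, −0.23 for Cfb, −0.45 for Cd55 and −0.90 for C4b, while Cd59a (0.71), C1ra (0.32) and C2 (0.31) kept their sign. The 12 markers are not a fixed reference: 1 passed as higher in the libraries labelled knockout against aged controls, and 2 passed as lower in aged against young controls. The summed level of the 12 stromal markers was 7712.2 to 9790.1 FPKM in the libraries labelled knockout and 4478.2 to 6521.2 FPKM in aged controls. Its part in the member values was not tested otherwise.

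**Figure D2:**
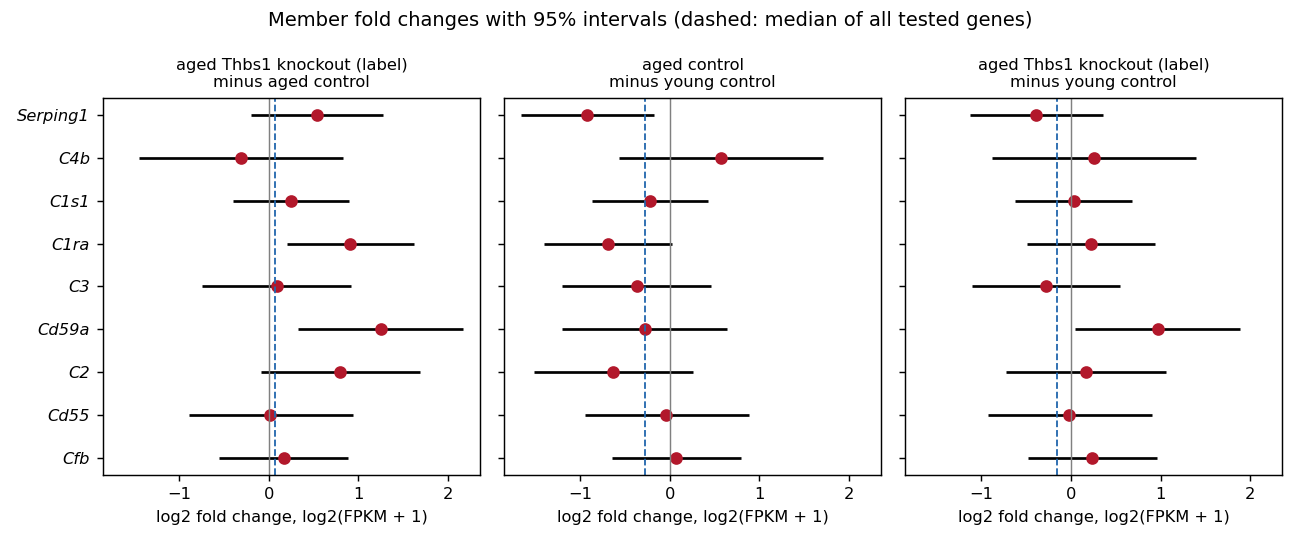
Log2 fold changes of the 9 members on the log2(FPKM + 1) scale (points) with 95% intervals (lines) in 3 comparisons; the dashed line is the median of all 11988 tested genes. In the comparison of the libraries labelled knockout with aged controls the intervals of Cd59a and C1ra lie above 0; in that of aged with young controls the interval of Serping1 lies below 0, and in the last that of Cd59a lies above 0.

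Aged and young controls differed in age by their labels. They also differed in the share of immunoglobulin reads, at 4.27% to 31.9% in aged and 0.00383% to 0.17% in young controls. In this comparison age cannot be told apart from such differences between the libraries. Serping1, the C1 inhibitor, was lower in all 3 aged controls, and so were C2 and C1ra, but none of the 9 members passed limma's adjusted test, where 4.04% of tested genes did. At an unadjusted p under 0.05 there was 1 member, Serping1, against 21.7% of tested genes. The unconverged library weights called 6 members, the fit of the 6 compared libraries 1 and the fit without labelled knockout replicate 2 called 2; the other alternatives called none. The groups did not overlap for 3 members, all lower in aged controls, beside 37.4% of all tested genes that lay lower without overlap. The median log2 fold change was −0.28 for the members and −0.28 for all tested genes, and 7 of the 9 members had a value below 0, beside 74.5% of all genes.

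Serping1 was at 1081.07, 1807.38 and 1404.68 FPKM in aged controls and at 2668.5, 2707.69 and 2591.75 FPKM in young controls. The young libraries lay close together, and the aged ones spread from 1081.07 to 1807.38, all below them. The log2 fold change was −0.92 (SE 0.33, 95% interval −1.66 to −0.18, limma adjusted p = 0.146). It passed without labelled knockout replicate 2, which shares the estimate of spread (adjusted p = 0.0431). Relative to the median gene the difference was −0.65. The summed stromal marker level moved with it, at 4478.2 to 6521.2 FPKM in aged controls and 9390.0 to 10154.5 FPKM in young controls. The 8 osteoblast markers summed to 1017.1 to 1868.9 FPKM in aged controls and 5733.4 to 7782.9 FPKM in young controls, with 4 that fell, and to 1749.3 to 8350.2 FPKM in the libraries labelled knockout, where 4 rose against aged controls. Their part in the Serping1 values was not tested. Under the stromal marker rescaling, which moved the median of all tested genes to 0.49, the Serping1 log2 fold change was 0.0136.

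C1ra was at 98.06, 149.39 and 108.63 FPKM in aged controls and at 203.2, 190.75 and 172.62 FPKM in young controls (log2 fold change −0.69, 95% interval −1.40 to 0.03, limma adjusted p = 0.246). C2 was at 3.75, 4.6 and 4.54 FPKM in aged controls, against 8.25, 6.62 and 6.75 FPKM in young controls (−0.63, −1.52 to 0.26, limma adjusted p = 0.389). Both genes were lower in every aged control than in any young control. C2 passed without labelled knockout replicate 2 (adjusted p = 0.0239) and in a fit of the 6 compared libraries alone (adjusted p = 0.041), with the same fold change. Under the stromal marker rescaling the log2 fold changes were 0.25 for C1ra and 0.16 for C2.

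C4b went against this direction without passing. It was at 193.99, 388.44 and 288.55 FPKM in aged controls and at 304.29, 265.19 and 81.94 FPKM in young controls, where replicate 3 was the lowest of all 9 libraries. The groups overlapped (log2 fold change 0.57, SE 0.50, limma adjusted p = 0.547), and without young control replicate 3 the fold change was −0.025. Under the stromal marker rescaling it was 1.5 (adjusted p = 0.0684). C3 was at 102.44, 175.28 and 173.02 FPKM in aged controls and at 284.61, 198 and 119.39 FPKM in young controls, with young replicate 3 again the lowest of its group (−0.37, −1.20 to 0.46). C1s1 (−0.22, −0.87 to 0.43), Cd59a (−0.28, −1.20 to 0.64), Cd55 (−0.04, −0.95 to 0.88) and Cfb (0.07, −0.64 to 0.79) overlapped between the groups as well.

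Between the libraries labelled knockout and young controls, which differ in both age and label, none of the 9 members passed, and only 0.0250% of all tested genes did. At an unadjusted p under 0.05 there was 1 member, Cd59a, against 8.63% of tested genes, and the unconverged library weights called 1 member, the other alternatives none. Cd59a was at 15.82, 18.23 and 17.08 FPKM in the libraries labelled knockout and at 6.79, 8.49 and 9.48 FPKM in young controls, without overlap, as for 4.08% of genes that lay higher. Its log2 fold change was 0.97 (SE 0.41, 95% interval 0.05 to 1.89, limma adjusted p = 0.554). Values of the remaining 8 members overlapped, with log2 fold changes from −0.39 for Serping1 to 0.26 for C4b, against a median of −0.16 over all genes, and 3 of the 9 members were below 0, beside 65.8% of all genes. This comparison shares its libraries with both others, so its values are not separate evidence. Beside the Cd59a values, the 8 cartilage markers summed to 1226.6, 136.2 and 3245.5 FPKM in the libraries labelled knockout. They summed to 41.6 to 63.3 FPKM in aged controls and 142.9 to 358.8 FPKM in young controls. None of them was at 0 in a whole group. Labelled replicate 2, with the highest Cd59a value, had the lowest sum of its group, below every young control. Of the 8, 5 rose in the libraries labelled knockout against aged controls and none passed against young controls. Their part in the Cd59a values was not tested.

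Ratios within a library do not depend on how the library was scaled, and 8 of them were computed, chosen after the member values were seen. The C1 proteases C1r and C1s act as a tetramer with equal parts of each. The ratio of C1ra to C1s1 was 0.995, 1.3 and 0.877 in the libraries labelled knockout, 0.713, 0.633 and 0.627 in aged controls and 0.839, 0.845 and 1.06 in young controls. Aged controls thus lay below both other groups without overlap. The log2 difference was 0.67 for the libraries labelled knockout minus aged controls and −0.47 for aged minus young controls. The exact two-sided permutation p was 0.1 for both, the smallest that 3 against 3 libraries allow, and 0.48 after adjustment over the 24 ratio tests computed.

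The ratio of Serping1 to the sum of C1ra and C1s1, the inhibitor over its target proteases, was 6.72, 2.44 and 6.31 in the libraries labelled knockout, 4.59, 4.69 and 4.98 in aged controls and 5.99, 6.5 and 7.74 in young controls. No aged control reached the lowest young control (exact permutation p = 0.1, adjusted p = 0.48), while labelled replicate 2 had the lowest value of all 9. The ratio of C4b to C3 was 1.47, 1.14 and 1.82 in the libraries labelled knockout, 1.89, 2.22 and 1.67 in aged controls and 1.07, 1.34 and 0.686 in young controls. It was higher in every aged control than in any young control (log2 difference 0.94, exact permutation p = 0.1, adjusted p = 0.48), and the libraries labelled knockout overlapped with both. The ratios of C2 to Cfb and of Cd59a to Cd55 overlapped between groups in every comparison (exact permutation p = 0.2 to 0.6, adjusted p = 0.533 to 0.686).

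**Figure D3:**
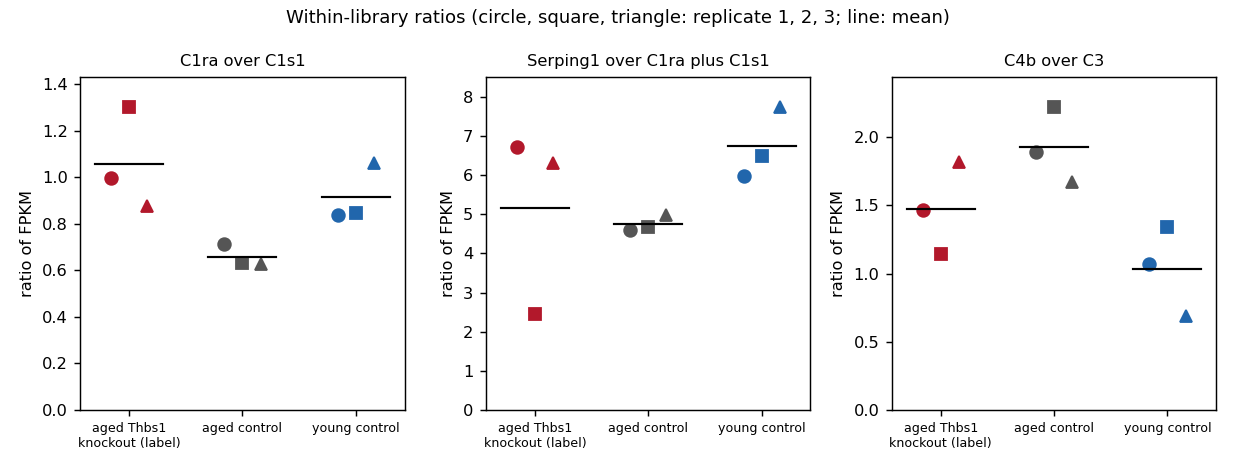
Ratios of FPKM within each library (linear axes from 0) for C1ra over C1s1, Serping1 over the sum of C1ra and C1s1, and C4b over C3; circles, squares and triangles are replicates 1, 2 and 3 and lines are means of 3 libraries. Aged controls lie at 0.627 to 0.713 for C1ra over C1s1, below every other library.

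Some members have a paralog of similar name, whose reads may have been shared with them. C4a, the paralog of C4b, was listed at 0.64, 25.3 and 1.07 FPKM in the libraries labelled knockout, at 0.57 to 1.48 FPKM in aged controls and at 0.67 to 1.18 FPKM in young controls, so labelled replicate 2 stood far above every other library and reached 15.7% of its C4b level, against 0.213% to 0.989% elsewhere. C1rb, the paralog of C1ra, was at 0.828% to 1.31% of C1ra in all 9 libraries. Cd59b, the paralog of Cd59a, was at 1.85, 0.04 and 1.54 FPKM in the libraries labelled knockout, 1.24, 0.72 and 0.55 FPKM in aged controls and 1.18, 1.91 and 3.73 FPKM in young controls. C1s2 was at most 0.56 FPKM and Cd55b at most 0.14 FPKM in any library. Sequence identity between paralogs was not computed, and how shared reads were counted is not given in the sources used here.

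Within groups the members differed in how steady they were. C4b had a within-group SD of 0.71 on the log2(FPKM + 1) scale, larger than that of 85.7% of tested genes, and C1s1 one of 0.33, larger than that of 39.3%; the median over all genes was 0.39. From the lowest to the highest library Cd59a spanned 7.01-fold, C2 4.82-fold and C1s1 1.89-fold. Labelled replicate 2 held the highest value of C2, C1s1, C1ra, Cfb and Cd59a and the lowest of Cd55, and aged control replicate 1 held the lowest of C3, C2, C1s1, C1ra and Serping1.

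For the 3 members with the smallest p, the genes with the most similar profile were sought by the root mean square difference of log2(FPKM + 1) over the 9 libraries, each gene centred on its own mean. Serping1 was closest to Clu (0.108) and Cdh11 (0.115), against its own variation of 0.476 around its mean. C1ra was closest to Ksr1 (0.097) and Msx1 (0.11), against 0.501. Cd59a was closest to Cox4i2 (0.326) and Mcub (0.37), against 0.706, so no gene followed it as closely.

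Outside these 9, 48 further complement genes were listed, of which 23 passed the filter and 22 stayed under 1 FPKM in every library. In the libraries labelled knockout against aged controls none rose and 3 fell, all receptors, where 1.52% of all tested genes rose and 1.96% fell. In aged against young controls 2 rose and 1 fell, where 2.57% of all tested genes rose and 1.47% fell. That balance over all genes depended on scaling. In the libraries labelled knockout against aged controls 182 rose and 235 fell as deposited, 178 and 352 after median-ratio rescaling, 134 and 398 without immunoglobulin genes and 66 and 717 after stromal marker rescaling. In aged against young controls 308 rose and 176 fell as deposited, and 358 and 68, 382 and 66, and 1042 and 18 in the same order of settings. The median log2 fold changes of the 23 were 0.01 and −0.43, beside 0.07 and −0.28 over all genes. Clu (clusterin, which binds the forming pore) was abundant in all 9 libraries, at 153.05 to 478.85 FPKM. So was Colec12, a collectin receptor, at 105.26 to 180.82 FPKM. Colec11 (a soluble collectin), C1qbp, Cr1l (Crry, the rodent C3 regulator) and C6, a terminal component, averaged 10.8 to 17.5 FPKM. C1qa, C1qb and C1qc, the recognition subunits of C1, which macrophages make, were at or under 0.81 FPKM everywhere but C1qc in labelled replicate 2, at 1.62 FPKM.

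Itgb2, the beta chain shared by complement receptors 3 and 4, was at 0.18, 3.56 and 0.94 FPKM in the libraries labelled knockout, at 87.29, 127.86 and 18.31 FPKM in aged controls and at 0.5, 0.7 and 0.17 FPKM in young controls. Aged controls were above all other libraries, and the gene fell in the libraries labelled knockout (log2 fold change −4.79, SE 0.70, limma adjusted p = 0.0148) and rose in aged against young controls (5.39, SE 0.70, limma adjusted p = 0.00787). C3ar1, the C3a receptor, was at 0, 0 and 0.19 FPKM in the libraries labelled knockout, 18.62, 34.21 and 1.74 FPKM in aged controls and 0, 0.1 and 0.21 FPKM in young controls (−3.55, limma adjusted p = 0.0402; 3.49, adjusted p = 0.0397). C5ar1, the C5a receptor, was at 3.39, 2.24 and 2.88 FPKM in the libraries labelled knockout and 92.87, 153.05 and 9.83 FPKM in aged controls (−3.82, limma adjusted p = 0.0364), and at 10.11, 10.28 and 7.99 FPKM in young controls (2.37, adjusted p = 0.129). Aged control replicate 3 was far below replicates 1 and 2 for all 3 receptors.

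The summed pan-leukocyte markers moved with these receptors. The 11 markers summed to 98.5 to 284.7 FPKM in the libraries labelled knockout, 291.4 to 2500.4 FPKM in aged controls and 104.3 to 202.3 FPKM in young controls. Among them, Fcer1g and Arhgdib overlapped in both comparisons. The 8 neutrophil markers did not follow the receptors, with sums of 24.6 to 54.4, 27.4 to 235.0 and 120.9 to 293.1 FPKM in the same order of groups. The part of either list in the receptor values was not tested. Of the defining leukocyte gene Ptprc, aged controls held 2.99, 4.14 and 0.36 FPKM and no other library more than 0.15 FPKM. Leaving out single libraries ended the calls of C3ar1 and C5ar1 against the libraries labelled knockout in 7 of 9 fits each, where the adjusted p ran up to 0.188 and 0.175. Their calls also ended without the filter (0.1 and 0.0941) and with only the compared libraries (0.163 and 0.155). That of Itgb2 ended without aged control replicate 1 (0.089) and without labelled replicate 3 (0.0515), and in the fit of the 6 compared libraries (0.111). For aged against young controls, the call of Itgb2 ended in 3 of 9 such fits (adjusted p up to 0.0633) and that of C3ar1 in 6 of 9 (up to 0.196) and without the filter (0.0959). Fold changes on the log2(FPKM + 1) scale understate those of genes near 0. The macrophage gene Adgre1 was at 1.07, 2.46 and 0.15 FPKM in aged controls and at most 0.22 FPKM elsewhere. It did not pass the filter and was not tested. It belongs to a list of 10 macrophage markers, of which 3 others, Csf1r, Cd68 and Vcam1, were tested and none passed. The median log2 fold change of these 3 was 0.65 in the libraries labelled knockout against aged controls and −0.26 in aged against young controls. Vcam1 is also among the stromal markers. Of the untested markers, Mrc1 was at 0.44, 0.46 and 1.45 FPKM in aged controls and at most 0.29 FPKM elsewhere. C1qa, C1qb, C1qc, Mpeg1 and Cd163 overlapped in both comparisons. The list thus did not move as 1 set.

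Cfd, adipsin or factor D, which cuts factor B and is made by fat cells, fell in aged controls, at 0.67, 1.88 and 0.73 FPKM, against 10.41, 30.48 and 8.53 FPKM in young controls (log2 fold change −2.89, SE 0.59, limma adjusted p = 0.0321). The call ended in 6 of 9 fits without 1 library, with an adjusted p of up to 0.165, and also with a pseudocount of 0.1 (0.114) and without the filter (0.0836). It was at 3.19, 0 and 1.61 FPKM in the libraries labelled knockout, and the difference from aged controls did not pass (limma log2 fold change 0.13, SE 0.59, adjusted p = 0.926). Vtn (vitronectin, which keeps late components off membranes) was at 6.63, 15.13 and 10.52 FPKM in the libraries labelled knockout, 21.54, 39.72 and 24.64 FPKM in aged controls and 8.12, 12.74 and 9.81 FPKM in young controls. Every aged control lay above every other library, yet neither difference passed (−1.35, limma adjusted p = 0.0653; 1.37, limma adjusted p = 0.0543). Vtn passed in 5 of 18 alternatives in the libraries labelled knockout against aged controls and in 9 of 18 in aged against young controls, among them the ones that left out immunoglobulin genes (adjusted p = 0.0306 and 0.0245). Clu, in the same groups, had log2 fold changes of 0.51 (limma adjusted p = 0.448) and −0.98 (limma adjusted p = 0.138).

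**Figure D4:**
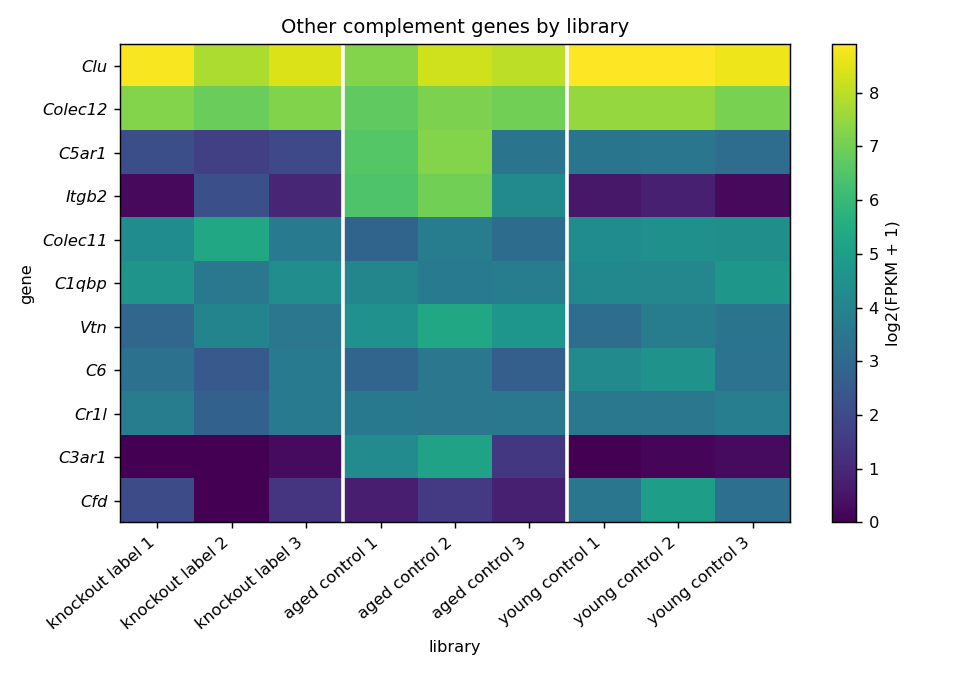
log2(FPKM + 1) (colour) of 11 complement genes outside the 9 members (rows) in the 9 libraries (columns: labelled knockout, aged control, young control). Within their rows, C5ar1, Itgb2 and C3ar1 are highest in aged controls 1 and 2, at up to 153.05 FPKM, and Cfd in young controls, at up to 30.48 FPKM.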

How the data were processed

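RNA of sorted mouse marrow stromal cells was sequenced after SMART-Seq v4 library preparation, per the labels' protocols. The values used are FPKM per gene, deposited by the authors for all 9 libraries. FastQC 0.11.5, STAR and edgeR, and GRCm38/mm10, are named in the submitters' processing notes; no source used here gives multiple-mapping or strand settings. No counts were used, so a count test was not the main test. Values of low genes were whole multiples of 1 read (99.2% to 100.0% within 0.1), which gave relative depth; 3 reads in a 2 kb transcript correspond to 0.0543 to 0.0845 FPKM. Counting error was not modelled on its own and enters these tests only through the spread between libraries.

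Genes that reached 1 FPKM in 3 or more libraries were tested on log2(FPKM + 1) with limma 3.58.1 (R 4.3.3, trended variance, 9 libraries, 6 residual degrees of freedom) and Benjamini-Hochberg adjustment over all tested genes at 0.05. The procedure was tested on simulated data with independent noise for each gene. Such data hold no shift shared by a whole library, so they do not show how the test behaves under one. Ratios were tested by exact permutation (scipy 1.17.1). Promoters came from RefSeq. The 9 members and the gene lists were chosen with earlier results of these data known. Named beside them were complement genes that passed or averaged at least 10 FPKM, paralogs of members, and the 2 genes most like each of 3 members. A gene that met this rule is not reported here. Protein sequences were not used here.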

Additional observations from a re-analysis of the deposited data

How the results depend on the processing

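With 3 libraries a group, the 95% intervals of the members were wide, and a member that did not pass is not shown to be equal between groups. The libraries labelled knockout against aged controls called 417 genes as reported, 92 without the filter, 6347 with library weights, 14 with only the compared libraries, 64 with the replicate block, 783 after stromal marker rescaling and 1323 after median-ratio rescaling without labelled replicate 2. Aged against young controls called 484, and 138, 7419, 2128, 120, 1060 and 1235 under the same settings. The last 2 settings were chosen after seeing the data. The libraries labelled knockout against young controls called 3, and 1414 with library weights, 1 with only the compared libraries, 2 with the replicate block and 50 after median-ratio rescaling without labelled replicate 2. Leaving out 1 library gave 28 to 1910, 17 to 2743 and 2 to 40 genes, and 0 to 0, 0 to 2 and 0 to 0 members. Library weights called 4, 6 and 1 members, and the compared libraries alone called 1 in aged against young controls. Same-numbered libraries had correlated deviations of −0.288 to 0.302, so the numbers were not taken to pair them, and no member passed with the replicate block (0, 0 and 0). With the block the adjusted p was 0.0793 for C3ar1 and 0.069 for C5ar1 in the libraries labelled knockout against aged controls, and 0.0776 for C3ar1, 0.0861 for Cfd and 0.0472 for Vtn in aged against young controls.

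Signs turned as follows, all in log2 units; the cause was not tested. In the libraries labelled knockout against aged controls, weights gave 0.234 for C4b. Leaving out immunoglobulin genes gave −0.133 for C3 and −0.155 for Cd55, and median-ratio rescaling −0.0394 and −0.096. That rescaling without labelled replicate 2 gave −0.186 for C1s1, −0.13 for C3 and −0.116 for Cfb. A pseudocount of 0.1 gave −0.0201 for Cd55 and −0.39 for Cfd. Stromal marker rescaling gave −0.346 for C1s1, −0.505 for C3, −0.448 for Cd55, −0.226 for Cfb, −0.176 for Cfd, −0.086 for Clu and −0.0585 for Serping1. Leaving out 1 library gave −0.165 to 0.219 for C3, −0.331 to 0.0939 for Thbs1, −0.327 to 0.707 for Cfd and −0.461 to 0.384 for Cd55.

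In aged against young controls, weights gave −0.336 for C4b, 0.393 for Cd55, 0.0564 for Cd59a and −0.481 for Cfb. Leaving out immunoglobulin genes gave 0.0964 for C1s1, 0.208 for Cd55 and 0.0123 for Cd59a; median-ratio rescaling gave 0.121, 0.221 and 0.0272, and without labelled replicate 2 0.123, 0.224 and 0.0275. Stromal marker rescaling gave 0.245 for C1ra, 0.714 for C1s1, 0.164 for C2, 0.562 for C3, 0.688 for Cd55, 0.551 for Cd59a, 0.0136 for Serping1 and 0.0904 for Thbs1. Leaving out 1 library gave −0.257 to 0.278 for Cfb, −0.243 to 0.1 for Cd55, −0.636 to 0.254 for Cd59a and −0.0251 to 0.915 for C4b.

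In the libraries labelled knockout against young controls, weights gave −0.276 for C1ra, −0.351 for C1s1, −0.356 for C2, −0.101 for C4b, 0.829 for Cd55 and −0.235 for Cfb. Cd55 was 0.0534 without immunoglobulin genes, 0.125 after median-ratio rescaling, 0.381 after that without labelled replicate 2 and 0.24 after stromal marker rescaling, which gave 0.057 for C3. Median-ratio rescaling without labelled replicate 2 gave −0.0265 for C1ra, −0.0637 for C1s1 and −0.3 for C2. Leaving out 1 library gave −0.5 to 0.345 for Cd55, −0.35 to 0.459 for C2, −0.145 to 0.181 for C1s1, −0.0812 to 0.502 for C1ra, −0.61 to 0.0129 for C3, −0.335 to 0.605 for C4b and −0.0889 to 0.446 for Cfb.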

Other observations

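Colec11, a soluble collectin of the lectin route, was at 19.12, 38.84 and 12.19 FPKM in the libraries labelled knockout, 6.39, 12.47 and 7.85 FPKM in aged controls and 18.92, 21.06 and 20.58 FPKM in young controls. Every aged control lay below every young control, and the libraries labelled knockout overlapped with aged controls by labelled replicate 3 alone. Neither difference passed limma's test (log2 fold change 1.2, adjusted p = 0.137, against aged controls; −1.14, adjusted p = 0.133, for aged against young controls).

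C6, which joins the terminal pore, was at 9.33, 4.63 and 11.52 FPKM in the libraries labelled knockout, 6.46, 10.67 and 5.51 FPKM in aged controls and 18.41, 22.25 and 9.58 FPKM in young controls. Its log2 fold change was −1.02 in aged against young controls (limma adjusted p = 0.181), and the groups overlapped by young control replicate 3. Of the 7 terminal components listed, 5 stayed under 1 FPKM in every library.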
